A study of Glycine max with 6 samples.

Results

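Glycinin is the 11S legumin-type globulin of the soybean (Glycine max) seed, and the transcripts of its genes were measured here in seed tissue of plants carrying an RNA interference (RNAi) transgene against storage proteins. All soybean probe sets that the platform annotation assigns to GY1, GY2, GY3, GY4, GY5 or GY7 were taken. This gave 6 genes, of 6388 soybean genes with a symbol in the annotation, placeholder symbols included. It gave 9 of the 37593 soybean probe sets on the array. GY1, GY2 and GY4 had a pair of probe sets each, and GY3, GY5 and GY7 had 1 each. GY4 is listed under 2 gene records with the same symbol, and both of its probe sets were counted as GY4. All 9 were detected and tested.

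The tissue was the cotyledon, the storage organ of the seed, taken at 150 mg. There were 3 samples: RNAi line 1, RNAi line 2 and a nontransgenic control, which one of the labels gives as jack. The lines are independent transgenic lines, each with 1 sample and 2 technical replicate arrays, as has the control, so that 6 arrays were used. The labels name neither the storage protein genes the transgene matches, nor its promoter, nor the number of seeds or plants in a sample. The control is a single sample, so its handling and its lack of the transgene cannot be told apart. In whole cotyledons, fewer cells of a type and less RNA per cell cannot be told apart either.

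Glycinin precursors are made on the endoplasmic reticulum, assemble into trimers, travel to protein storage vacuoles and are cut there into an acidic and a basic chain held together by a disulfide bond; the cut trimers then pair into hexamers. The subunits form families by sequence. GY1, GY2 and GY3 encode the closely related group I subunits, which are the richer in sulfur amino acids, and GY4 and GY5 encode the larger group II subunits. GY7 encodes a more distant member that is known for weak expression. In RNAi, small RNAs cut from a double-stranded transcript direct the breakdown of RNAs that match them in sequence.

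Values are the deposited signals, on a linear scale, of probe sets, each a group of short probes for 1 transcript or family. Array by array, the signal that the highest 5% of probe sets for other organisms reached began at 68.4 to 91.7, and this was taken as background. The lowest glycinin signal was 3.5 times the background of its array, at GY7. Differences are given on the scale of log2(signal + 16) and are relative to the scaling of whole arrays in the deposited values. Scaled instead to the spiked poly-A control RNAs, the median tested probe set moved by 1.35 on the log2 scale in the RNAi lines against the control, compared with 0.02 in the deposited scaling. Replicate 2 of line 2 had the highest background, 91.7, and the highest median over all probe sets, 72.4 against 57.8 to 63.6 on the other arrays. The fewest soybean probe sets, 26459, exceeded background there. That array also stood apart at high signals. This was read over the 195 probe sets, outside glycinin and beta-conglycinin, that reached 30000 in the control. The median log2 difference of that array from the control mean was 0.05. It was -0.18 and -0.32 on the line 1 arrays and -0.28 on replicate 1 of line 2. Of 9 cotyledon marker genes listed, 4 had a probe set under that symbol (the trypsin inhibitor genes KTI1 and KTI3, BBI and P34), and their 5 probe sets had signals from 30136 to 86709. Their summed signal ran from 207163 to 303338 in the RNAi lines and from 281342 to 292375 in the control, and their log2 differences lay between -0.30 and -0.20. In the seed coat list, with 3 of 4 genes found, it ran from 5848 to 7149 in the RNAi lines and from 12571 to 13315 in the control, with PRP1 below background on every array. Its members went in opposite directions: PRP2 had log2 differences of -1.51 (called) and -1.16, and SCB1 was called higher by 2.10, with signals from 1153 to 1258 in the RNAi lines and of 278 and 248 in the control. In the leaf list, with 2 of 5 genes found, it ran from 102682 to 141342 in the RNAi lines and from 130233 to 136762 in the control. The bright CAB3 probe sets carry that sum, while VSPA was called higher at 2 probe sets, by 2.04 and 2.37. Its other tested probe sets had 0.98 and -0.02, neither called, and the rest were too dim to be tested. The part of these markers in the glycinin results was not tested.

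GY3 and GY2, both of group I, were lower in the RNAi lines than in the control. GY3 had signals of 1892 and 1640 in line 1, 1680 and 1879 in line 2, and 17948 and 20903 in the control. The RNAi and control arrays did not overlap, and the lines stood at 9.09% and 9.16% of the control mean. By limma with Benjamini-Hochberg adjustment over 27460 tested probe sets, the log2 difference was -3.44 (SE 0.10, adjusted p = 0.0488), at place 5 of the tested probe sets counted from the lowest difference. With arrays scaled to the spikes, where 26120 of the tested probe sets were called, it was -2.04 and still called (adjusted p = 0.00175, limma). The rank of the probe set among all soybean probe sets, which no scaling of an array can move, fell to between 5526 and 6263 on the RNAi arrays, against 503 and 425 on the control arrays.

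GY2 was measured by a pair of probe sets that gave unequal falls. The one with the plain suffix at had signals of 7714 and 7865 in line 1, 6821 and 7480 in line 2, and 49835 and 49615 in the control. The other has the suffix s_at, which in the manufacturer's naming marks probes that match more than 1 transcript; it had 19002 and 18207 in line 1, 18729 and 19752 in line 2, and 50379 and 51230 in the control. On both, the RNAi arrays lay far below the control arrays, with no overlap. The log2 differences were -2.73 (SE 0.11) and -1.42 (SE 0.10), both called (adjusted p = 0.0488 each, limma), at places 18 and 175 from the lowest. With arrays scaled to the spikes the plain probe set had -1.33 and was called (adjusted p = 0.00196), while the shared one had -0.02 and was not (adjusted p = 0.843), though it then lay 1.37 below the median tested probe set. Under the deposited scaling the lines thus kept 15.7% and 14.4% of the control signal at the plain probe set and 36.6% and 37.9% at the shared one.

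The size of the GY2 fall therefore depended on the probe set more than on the line. The plain signal divided by the shared one was 0.41 and 0.43 in line 1, 0.36 and 0.38 in line 2, and 0.99 and 0.97 in the control. On all 4 RNAi arrays the plain probe set stood below the shared one, while they were nearly equal in the control, so that the log2 ratio of plain to shared signal differed by -1.31 from the control. For GY1 that difference was -0.15 and for GY4 0.02. The pairs of GY1 and GY4 thus gave nearly the same difference from their probe sets, and that of GY2 did not. Which transcripts the shared GY2 probes match is not given in the sources used here.

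GY1, the third gene of group I, had lower signals on every RNAi array. Its plain probe set had 31842 and 29161 in line 1, 29633 and 37040 in line 2, and 69313 and 57375 in the control. Its shared probe set had 17223 and 15838 in line 1, 18389 and 18342 in line 2, and 31590 and 30583 in the control. The arrays of the groups did not overlap at either. The log2 differences of -0.99 (SE 0.11, adjusted p = 0.0538) and -0.84 (SE 0.12, adjusted p = 0.0632) missed the threshold by limma for both lines together, and turned to 0.41 and 0.57 with arrays scaled to the spikes, where they lay 0.94 and 0.78 below the median tested probe set. Of the 195 other bright probe sets, 4 had a difference as low as the plain GY1 probe set and 5 as low as the shared one. GY1 kept 48.2% and 52.6% of the control signal in lines 1 and 2 at the plain probe set, and 53.2% and 59.1% at the shared one.

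**Figure D1:**
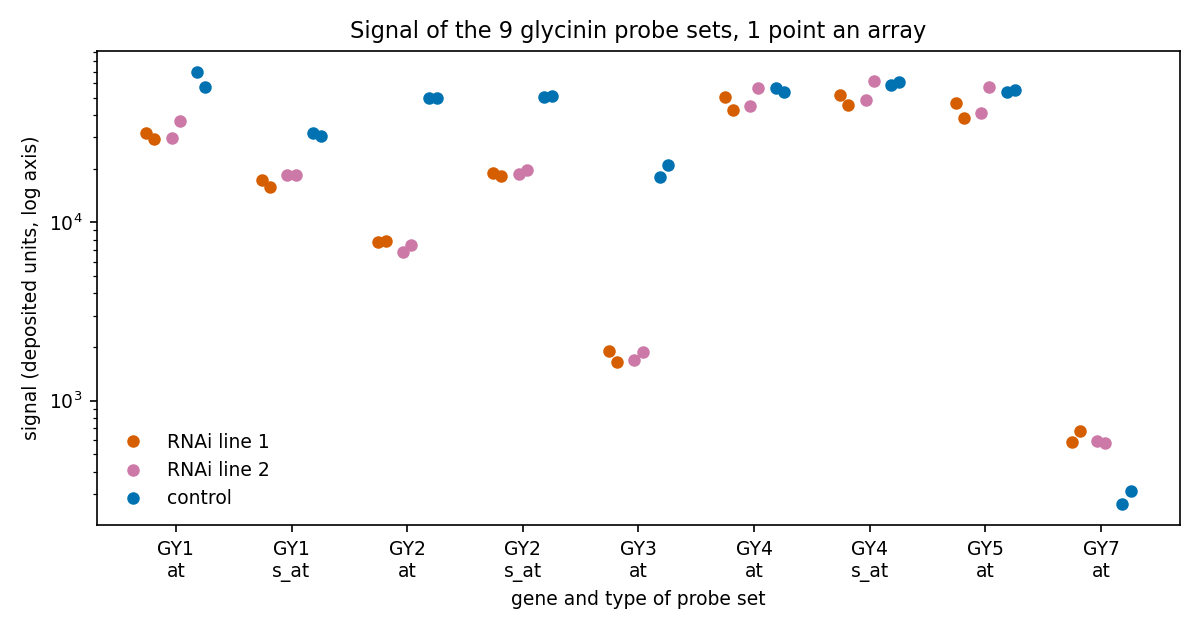
Signal of each of the 9 glycinin probe sets (log axis, deposited units) on the 2 arrays of RNAi line 1, of RNAi line 2 and of the control, 1 point an array. At GY1, GY2 and GY3 every RNAi point lies below both control points, at GY4 and GY5 the points overlap, and at GY7 every RNAi point lies above both control points.

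The group II genes had overlapping signals. GY4 had 50391 and 42721 in line 1, 45026 and 56786 in line 2, and 56806 and 53988 in the control at its plain probe set. At its shared probe set the values were 51937 and 45677 in line 1, 48453 and 61731 in line 2, and 58634 and 60851 in the control. GY5 had 46403 and 38578 in line 1, 41020 and 57614 in line 2, and 53729 and 54838 in the control. At all 3 probe sets, replicate 2 of line 2 lay above at least 1 control array while the other RNAi arrays lay below both.

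The log2 differences of group II were -0.19 (SE 0.11, adjusted p = 0.318) and -0.21 (SE 0.13, adjusted p = 0.322) for GY4 and -0.26 (SE 0.14, adjusted p = 0.276) for GY5, none past the limma threshold and none with an unadjusted p below 0.05. The 95% intervals were -0.54 to 0.15 and -0.59 to 0.17 for GY4 and -0.67 to 0.15 for GY5, so that a moderate fall was not excluded at this precision. Without replicate 2 of line 2 the differences were -0.28, -0.30 and -0.38, again not called (adjusted p = 0.2, 0.179 and 0.139). These differences were close to the median of -0.19 over the 195 other bright probe sets, of which 98, 84 and 47 had a difference as low. The GY4 signs turned to 0.036 and 0.047 after quantile normalization, and all 3 turned to between 1.14 and 1.21 with arrays scaled to the spikes, 0.14 to 0.21 below the median tested probe set.

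GY7 was the only member with a higher signal in the RNAi lines, under the deposited scaling. It had 588 and 672 in line 1, 593 and 576 in line 2, and 264 and 313 in the control, with no overlap between RNAi and control arrays. The log2 difference was 1.04 (SE 0.11), 2.05-fold, and just missed the threshold with both lines together (adjusted p = 0.0526, limma). With arrays scaled to the spikes it was 2.36 and called higher (adjusted p = 0.00175, limma), 1.01 above the median tested probe set. In that scaling 26120 of the 27460 tested probe sets were called, GY4 and GY5 among them, so that call does not set GY7 apart. The rank of GY7 among soybean probe sets was between 12273 and 13323 on the RNAi arrays, against 19130 and 17843 on the control arrays. It stayed a weak signal in every sample.

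Counted together, 3 of the 9 glycinin probe sets were called lower and 0 higher in the RNAi lines, where limma called 0.594% of all 27460 tested probe sets lower and 1.05% higher. All 3 were among the 5 of group I. Before adjustment, 6 of the 9 had a limma p below 0.05, those of group I and GY7, against 9095 of all tested. The median difference of the 9 was -0.84, against 0.02 over all tested probe sets. All RNAi arrays lay below both control arrays at 5 of the 9, those of group I, and above both at 1, GY7; over all tested probe sets these shares were 23.6% and 25.9%. The 3 calls rest on 1 residual degree of freedom among samples and each was lost when any 1 of the 4 RNAi arrays was left out (adjusted p from 0.0732 to 0.116), with GY3 then between -3.49 and -3.39. They were also lost after quantile normalization (adjusted p = 0.0715), median centring (0.0513), robust moderation (0.0506), with a pseudocount of 1 (0.062) and with no filter (0.193). The 1 degree of freedom is the gap between the lines, and the control, a single sample, was assumed to vary as they do.

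Compared with the control on its own arrays, each line gave the same pattern. Line 1 had log2 differences of -1.05 and -0.91 at the plain and shared probe sets of GY1, -2.67 and -1.45 at those of GY2, -3.45 at GY3 and 1.09 at GY7. Line 2 had -0.93 and -0.76 at GY1, -2.80 and -1.40 at GY2, -3.43 at GY3 and 0.98 at GY7. These 6 probe sets were called in each line by limma (adjusted p from 0.00227 to 0.0196 in line 1 and from 0.00209 to 0.0242 in line 2), 5 lower and 1 higher. With arrays scaled to the spikes the shared GY2 probe set was not called in line 1 (-0.036, adjusted p = 0.823) or line 2 (-0.0074, adjusted p = 0.963), and both GY1 probe sets had positive differences in each line. The backgrounds were 6.32% of tested probe sets called lower and 7.97% higher in line 1, and 6.91% and 8.48% in line 2. These tests measure the spread between technical arrays and not that between plants, and both lines were set against the same control sample.

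GY4 and GY5 were not called in either line. In line 1 they had -0.26 and -0.29 at the plain and shared probe sets of GY4 and -0.36 at GY5 (adjusted p = 0.305, 0.235 and 0.253, limma). In line 2 they had -0.13 at both probe sets of GY4 and -0.16 at GY5 (adjusted p = 0.588, 0.588 and 0.597). Group II thus stood slightly lower in line 1 than in line 2, by less than the gap between the technical arrays of either line.

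**Figure D2:**
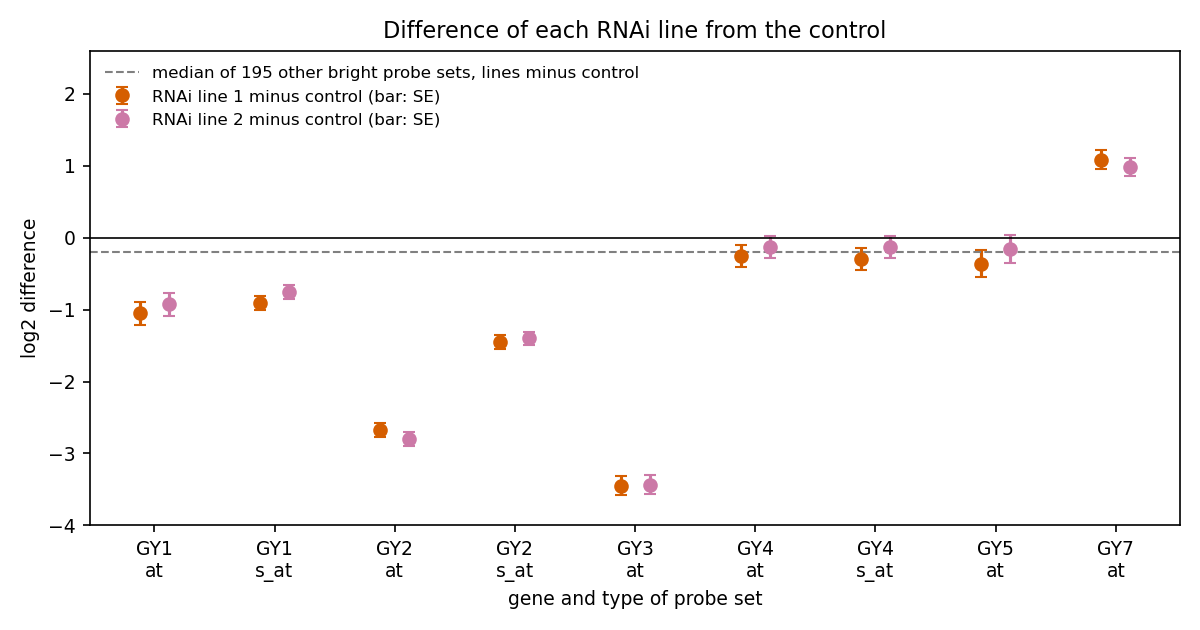
Log2 difference from the control of RNAi line 1 and RNAi line 2 at each glycinin probe set, with the standard error of the 6-array limma fit; the dashed line is the median of -0.19 over 195 other bright probe sets. The lines lie close together at each probe set, GY4 and GY5 lie near the dashed line, and the fall at the plain GY2 probe set exceeds that at the shared one. With arrays scaled to the spikes the points of GY1, GY4 and GY5 would lie above 0 and those of the shared GY2 probe set near 0.

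Line 2 minus line 1 was small at every glycinin probe set. The difference was 0.01 at GY3, with a 95% interval from -0.33 to 0.36. It was -0.12 (interval -0.37 to 0.12) at the plain and 0.05 (interval -0.19 to 0.28) at the shared GY2 probe set. The widest interval was at GY5, with 0.20 (-0.28 to 0.68), where the technical arrays of line 2 were 0.49 apart. Limma called 0 of the 9, and 0 of all tested probe sets (0.0%), with an unadjusted p below 0.05 at 0 of the 9 and at 1598 of the 27460. The intervals measure the spread between technical arrays, not that between plants, and do not show that the lines are equal. No bound exceeded 0.68 in size, which is smaller than the difference of either line from the control at GY2 and GY3.

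The share of each gene in the summed glycinin signal was then followed. For this, the probe sets of a gene were averaged on each array, so that a share is one of array signal and not of transcripts, since probe sets differ in brightness and the array compresses high signals. The summed signal of the 6 genes was 137938 and 120624 in line 1, 126818 and 160635 in line 2, and 230220 and 227875 in the control. The RNAi arrays thus held between 52.7% and 70.1% of the control mean, with replicate 2 of line 2 the highest. A constant scaling factor of an array bears on these sums and not on the shares.

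Group I made up 28.8% and 30.8% of the glycinin signal in line 1, 30.3% and 26.9% in line 2, and 51.5% and 50.6% in the control. Its share was lower by 21.8 ± 0.86 percentage points (SD, n = 2 lines) than in the control. The loss of share was unequal among its genes. GY3 held 1.37% in line 1 and 1.25% in line 2, against 8.48% in the control (means of 2 arrays each). GY2 held 10.2% in line 1 and 9.28% in line 2, against 21.9% in the control. GY1 held 18.2% in line 1 and 18.1% in line 2, against 20.6% in the control, where its arrays of 21.9% and 19.3% were further apart than the means of the lines. GY1 thus kept most of its share, although all RNAi arrays, from 17.2% to 18.9%, lay below both control arrays. A kept share is not a kept signal, since the summed signal was also lower in the RNAi lines.

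The share of group II was higher in turn. GY4 held 36.9% in each line, against 25.1% in the control. GY5 held 32.8% in line 1 and 34.1% in line 2, against 23.7% in the control. Together they made up between 68.6% and 72.8% of the glycinin signal on the RNAi arrays, against 48.4% and 49.3% on the control arrays. GY7 held between 0.359% and 0.557% on the RNAi arrays, against 0.115% and 0.137% on the control arrays. A higher share here does not mean a higher signal, since GY4 and GY5 had overlapping signals in all groups.

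**Figure D3:**
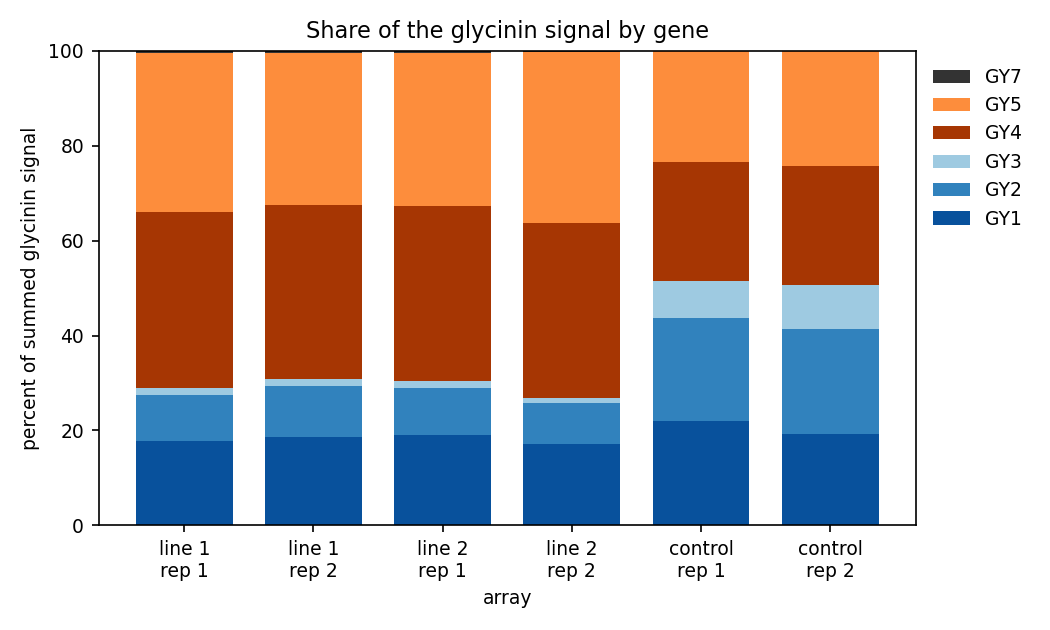
Percent of the summed glycinin signal held by each gene on each of the 6 arrays, stacked, with the probe sets of a gene averaged. Group I (GY1, GY2, GY3, blue) holds 26.9% to 30.8% on the RNAi arrays and 50.6% to 51.5% on the control arrays, and GY7 is a thin band at the top.

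The contrast between the groups was also taken within each array, where a constant factor applied to a whole array cancels. A shift that depends on signal strength does not cancel. The 195 other bright probe sets had a median difference of -0.19 in the RNAi lines, against 0.02 over all tested probe sets. The mean log2 signal of the group I probe sets minus that of the GY4 and GY5 probe sets was -2.18 and -2.05 in line 1, -2.11 and -2.37 in line 2, and -0.50 and -0.52 in the control. The change in this quantity from the control was -1.60 in line 1 and -1.72 in line 2, a mean of -1.66 ± 0.09 (SD, n = 2 lines). The RNAi arrays did not overlap the control arrays. Replicate 2 of line 2, which was bright at GY4 and GY5, had the lowest value.

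Gene by gene, the order of the changes relative to GY4 and GY5 was the same in both lines. GY3 changed most, by -3.14 in line 1 and -3.30 in line 2. GY2 came next, with -1.76 in line 1 and -1.96 in line 2, and GY1 last, with -0.68 and -0.70. GY7 had the opposite sign, with 1.39 in line 1 and 1.12 in line 2. These values are given as a description, with no p-value, since an exact permutation over 3 samples could not pass a threshold. A within-array difference shows unequal change and not that GY4 and GY5 were constant. GY7 is weak and GY4 and GY5 are bright, so a shift that depends on signal strength enters the GY7 difference. That difference was smaller after quantile normalization. The array compresses high signals, so the order of the genes is one of array signal and not of transcripts.

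**Figure D4:**
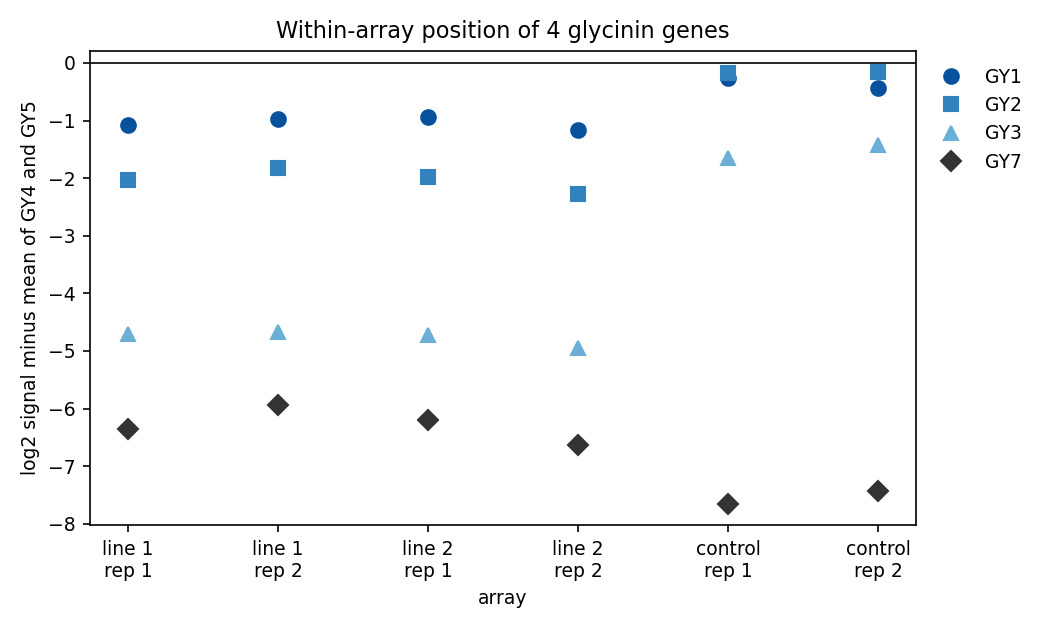
Log2 signal of GY1, GY2, GY3 and GY7 minus the mean of GY4 and GY5 on the same array, for the 4 RNAi arrays and then the 2 control arrays, with 0 marking equality with GY4 and GY5. On all RNAi arrays GY1, GY2 and GY3 lie below, and GY7 above, their places on the control arrays. The technical arrays of a line spread at GY7, from -6.36 to -5.94 in line 1 and from -6.63 to -6.20 in line 2.

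The glycinin genes include neighbours in the genome. In the RefSeq annotation of assembly Glycine_max_v4.0, used here for gene order only, GY1 and GY2 are adjacent on their chromosome, and so are GY3 and GY7. The members of each adjacent pair differed in response. GY2 was called lower and GY1 had smaller differences of the same sign under the deposited scaling. GY3 fell by 3.44 on the log2 scale, while GY7 beside it had a difference of 1.04 in the other direction. The gene next to GY1 on its other side, LOC100777747, is read by 3 probe sets with differences of 0.93, 0.73 and 0.12, none called (adjusted p = 0.0527, 0.0604 and 0.462, limma).

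Genes of most similar pattern were sought among 1184 tested probe sets with a single named gene. Glycinin probe sets and those with only a placeholder symbol were left out, so GY2 was not a candidate for GY3. Likeness was the largest gap over the 4 RNAi arrays between log2 values taken relative to the control mean. Among these candidates none came close to GY3. The nearest were SFERH-2 probe sets, of a ferritin gene, with gaps of 1.15 and 1.23. CG-BETA-1, of the beta-conglycinin beta subunit, followed with 1.39. For the brighter GY2 probe set, the shared one, the nearest were MYB138 (gap 0.05), a transcription factor gene, the proline-rich protein gene SBPRP (0.08) and another SFERH-2 probe set (0.14). For GY7 the nearest were NAC23 (gap 0.04), of the NAC transcription factor family, the seed maturation gene PM39 (0.13) and ATPC (0.13), of the chloroplast ATP synthase. These gaps describe 4 arrays of 2 RNAi samples, set against the same 1 control sample.

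Other genes on the path of a storage globulin were read from lists of symbols. Among the other storage globulins, 2 of 6 tested probe sets were called lower and 1 higher in both lines together, against 0.594% and 1.05% of all tested, with a list median of -0.89. In each line alone 3 of 6 were called lower and 1 higher. Over all tested probe sets 6.32% were called lower and 7.97% higher in line 1, and 6.91% and 8.48% in line 2. The third one called lower was a probe set annotated to several genes of the list, with -0.93 in both lines together (adjusted p = 0.0142 in line 1, 0.0189 in line 2 and 0.0581 together, limma). The 2 called lower in both lines together were those of CG-BETA-1, with 13309 and 13159 in lines 1 and 2 against 54834 in the control at the first (log2 difference -2.05) and -2.18 at the second. BG7S-2, a basic 7S globulin gene, rose by 2.23. The fall of CG-BETA-1 thus lay between those of the GY2 probe sets.

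Among chaperones and disulfide isomerases of the endoplasmic reticulum, where glycinin folds, 0 of 10 probe sets were called in both lines together (limma). Of the 10, 5 had an unadjusted limma p below 0.05, against 9095 of all 27460 tested probe sets. The list median was 0.30. In each line alone 2 of 10 were called higher, where 7.97% and 8.48% of all tested probe sets were called higher in lines 1 and 2. BIP4, a binding protein that assists folding, had the largest difference, 0.88 (adjusted p = 0.0594), and 0.32 at its other probe set. Of 6 probe sets for vacuolar processing enzymes and aspartic proteases, which act on proteins in the vacuole, 0 were called in both lines together (limma). Of the 6, 3 had an unadjusted limma p below 0.05, against 9095 of all 27460 tested, and the list median was 0.16. In line 1 alone 2 were called higher and 1 lower, against 7.97% and 6.32% of all tested probe sets. In line 2 alone 2 were called higher and 0 lower, against 8.48% and 6.91%. The higher ones were the SOYAP1 pair each time, and the lower one was a VPE2 probe set (adjusted p = 0.0232 in line 1 and 0.0643 in line 2). SOYAP1 had 0.65 (adjusted p = 0.0656) and VPE2 -0.54 (adjusted p = 0.126), while VPE, of an enzyme type that cuts glycinin precursors, had 0.04 (adjusted p = 0.804), with signals of 19228 and 19737 in lines 1 and 2 and 18926 in the control. Of the seed regulators listed, only LEC1-A had a probe set under its symbol, with 3678 and 3808 in lines 1 and 2 against 5993 in the control, a difference of -0.67 (adjusted p = 0.0646) that was called in each line alone (-0.70 and -0.65, adjusted p = 0.0176 and 0.0192).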

How the data were processed

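Total RNA from cotyledons was labelled with an Affymetrix one-cycle kit, per the labels. What the authors deposited is 1 intensity for each probe set and array, on a linear scale. Per the values, they were scaled array by array: after leaving out the lowest and highest 2% of probe sets, each array had a mean of 500.1. The software is not given in the sources used here.

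The members and lists were chosen with earlier results of these data known. Gene names came from the platform annotation, updated by gene identifier. Soybean probe sets above the 95th percentile of other organisms' probe sets on both arrays of a sample were tested (27460), as log2(signal + 16), with limma 3.58.1 in R 4.3.3 and Benjamini-Hochberg adjustment over all tested. A call is an adjusted p below 0.05. For both lines against the control the 2 arrays of a sample were averaged, leaving 3 means, 1 residual degree of freedom and a prior of 2.36. That degree of freedom is the gap between the lines, so the single control was assumed to vary as the lines do. The standard errors, p-values and intervals of that fit hold no measured spread between control samples. Single lines used 6 arrays (3 residual degrees of freedom, prior 2.35), so their p-values measure technical spread. Fits were tested on simulated data. Named are all 9 glycinin probe sets, the 3 most similar probe sets for each of GY3, GY2 and GY7, and the 1 or 2 largest differences in each list; LOC100777747 and VPE were added after seeing values.

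Alternatives were other scalings, filters, pseudocounts of 1 and 64, other moderation, each array left out, arrays as replicates, the sample as a random block, and the technical replicate number as a block. The number did not pair the samples: deviations of same-numbered arrays correlated at -0.01 to 0.02. The number of arrays limits the precision.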

Additional observations from a re-analysis of the deposited data

How the results depend on the processing

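The within-array contrast of group I against GY4 and GY5 kept its direction in every alternative run, with -1.76 after quantile normalization and -1.73 to -1.60 with each array left out. That of GY7 was 0.98 after quantile normalization and 1.14 to 1.37 with each array left out. The group I share of glycinin signal differed by -18.9 percentage points with the brightest and -25.6 with the dimmest probe set of each gene, by -23.02 after quantile normalization and by -22.7 to -20.96 with each array left out. In both lines together, 3 glycinin probe sets and 451 of all probe sets were called. Both counts were 0 under robust moderation, a pseudocount of 1, median centring, quantile normalization or with the filter dropped. The fits with arrays as replicates and with the replicate block take their spread from technical arrays. A negative sample correlation (-0.29) lowers the standard error of the random block fit. Higher counts in these fits thus add no support. The counts were 6 and 3323 with the 99th percentile filter, 6 and 3547 at pseudocount 64, 6 and 8517 under an intensity trend, 6 and 6733 with arrays as replicates, 6 and 10196 with the sample as a random block, and 8 and 26120 scaled to the spikes. With each array left out they ranged from 0 to 5 and from 0 to 1884. With the replicate block they were 6 and 4485, although the number only names the arrays; in line 1 they were 6 and 2201 against 6 and 3924 without it, in line 2 5 and 2545 against 6 and 4226, and between the lines 0 and 0. In line 1 all calls numbered 26246 scaled to the spikes, 1065 with no filter, 6902 with a trend and 329 to 2518 with an array left out, where 3 to 6 glycinin calls were made. In line 2 the numbers were 26173, 1132, 7334 and 527 to 2045, with 3 to 5. Between the lines, 3 were called scaled to the spikes, 0 of them glycinin.

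Signs turned as follows, at plain and then shared probe sets. After quantile normalization GY4 had 0.036 and 0.047 in both lines together, 0.056 and 0.041 in line 1 and 0.015 and 0.052 in line 2. Scaled to the spikes, GY1 had 0.41 and 0.57, 0.36 and 0.50, and 0.47 and 0.63; GY4 had 1.21 and 1.19, 1.16 and 1.12, and 1.26 and 1.27; GY5 had 1.14, 1.05 and 1.23. With each array left out, line 2 ranged from -0.30 to 0.036 and from -0.30 to 0.047 at GY4 and from -0.40 to 0.086 at GY5, positive without its replicate 1. Line 2 minus line 1 turned to -0.0089 at the shared GY2 and -0.042 at the plain GY4 probe set after quantile normalization, and to -0.0069 at GY3 scaled to the spikes. With each array left out it ranged from -0.090 to 0.115 at GY3 (negative without replicate 2 of either line) and, negative without replicate 2 of line 2, from -0.040 to 0.281 at the plain GY1 probe set, -0.043 to 0.291 and -0.0075 to 0.342 at GY4, and -0.045 to 0.445 at GY5. The causes were not tested.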
